A study of Mus musculus with 10 samples.

Results

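Mitochondrial ribosomal proteins are encoded in the nucleus, made in the cytosol and imported into mitochondria, where they join ribosomal RNAs transcribed from mitochondrial DNA. The resulting ribosome translates only the few membrane proteins of the respiratory chain and ATP synthase that mitochondrial DNA encodes. Its large subunit forms the peptide bond and its small subunit reads the messenger RNA. Long-term haematopoietic stem cells are known to rely little on oxidative phosphorylation and to raise mitochondrial activity as they leave quiescence. The genes were taken by symbol: every gene with a single current or older platform symbol that starts with Mrpl or Mrps followed by a digit, with the probe of the highest mean intensity over all arrays standing for each gene. This gave 76 of the 19057 genes named on the array, 48 with an Mrpl symbol (large subunit) and 28 with an Mrps symbol (small subunit). A probe was tested if 5 or more of the 10 arrays detected it above background (detection p under 0.05). By that filter 73 of the 76 genes were tested, 46 Mrpl and 27 Mrps.

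RNA was taken from LSK cells, bone marrow cells negative for lineage markers and positive for Sca1 and cKit, where the haematopoietic stem cells and early multipotent progenitors are found. Cells of individual mice were sorted, 5 labelled control and 5 labelled LysM-KI, and each sample was read on 1 Illumina mouse expression array. All 10 mice, controls included, are labelled as LysMCre, a strain in which the myeloid lysozyme locus drives Cre recombinase, and were 9 to 16 weeks old. The knocked-in allele is not named in the labels, nor is the sex of the mice or whether the controls carry the same allele. The amount of a protein transcript in a sorted bulk sample depends on which cells are in it, and fewer cells of a type and less RNA per cell cannot be told apart.

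Of 10 LSK and stem cell markers on the array, 8 were detected on all 10 arrays, among them Kit, Cd34 and Flt3, while Slamf1 was detected on 0 control and 2 LysM-KI arrays. Lyz2, the gene of the locus that drives Cre, had a log2 fold change of -0.01 (LysM-KI minus control). The arrays detected 15234 to 17093 probes in control and 16430 to 18801 in LysM-KI samples, and correlated with each other at 0.741 to 0.931. Xist, which is transcribed in females, read 12.26 in control replicate 4 and 11.92 in LysM-KI replicate 4, 6.68 in LysM-KI replicate 1 and at most 4.66 on the other 7 arrays. Control replicate 4 therefore differs from the other controls in Xist as well as in the values below.

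Markers of other cells were present to varying degrees. The mean log2 level of 6 erythroid markers ran from 5.51 to 9.51 on the control arrays and from 5.53 to 8.13 on the LysM-KI arrays. That of 8 mature neutrophil markers ran from 5.16 to 7.49 and from 5.28 to 6.06. Of the neutrophil genes 4 were kept, S100a9 was detected on all 10 arrays at 5.57 to 11.57, and Retnlg and Mmp8 were detected on none. The mean of 7 B cell and plasma cell markers ran from 6.87 to 7.99 in control and from 7.05 to 7.64 in LysM-KI. Among them Mzb1, a chaperone for antibody assembly, read 6.95 to 8.24 in control and 5.27 to 6.32 in LysM-KI. Its groups did not overlap, as was so for 0.91% of all probes. Its adjusted p of 0.392 in limma's test was the smallest of all probes. Of the 5 kept genes of that list Jchain was lower as well (log2 fold change -0.77), while Cd79b (0.83), Ebf1 (0.59) and Vpreb1 (0.47) were higher. The mean of 9 stroma and endothelium markers ran from 5.30 to 5.63 in control and from 5.02 to 5.21 in LysM-KI, so the groups did not overlap. Of these 3 were kept. Pecam1 was detected on all 10 arrays, with a log2 fold change of -0.13 and overlapping groups. Sparc and Pdgfrb were each detected on 4 control and 2 LysM-KI arrays. Col1a1 and Kdr were detected on none, and the mean includes the genes that were not kept. None of 4 macrophage and monocyte markers was kept. The part of these signals, and of Xist, in the results below was not tested.

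The transcripts of the mitochondrial ribosome were broadly present in LSK cells of both groups. Of the 76 genes, 56 were detected on all 10 arrays, or 73.7%, against 28.95% of all genes on the array. For 1 gene, Mrps14, a small-subunit protein linked to human mitochondrial disease, the signal was above background on no array. Mrpl53 was detected on 1 control and 1 LysM-KI array, and Mrpl35 on 0 control and 2 LysM-KI arrays. Mrpl35, not well above background on any control array, read 4.67, 6.81, 5.39, 4.96 and 4.77 in LysM-KI replicates 1 to 5. Its LysM-KI mean of 5.32 was at least 1.05-fold higher than the background level of 5.25 on the control arrays, where the measured mean was 4.59. That bound rests on LysM-KI replicate 2: without it, a choice made after seeing the data, the mean was 4.95, below the background level. These 3 genes were left out of the test, and their level below the background of a probe does not show that the transcript was absent.

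No mitochondrial ribosomal protein gene differed between LysM-KI and control LSK cells after correction. With limma's moderated test and Benjamini-Hochberg adjustment over 17245 probes, 0 of the 73 genes had an adjusted p under 0.05, where 0% of all probes did. The smallest adjusted p of the 73 was 0.819, and that of all probes was 0.392. At an unadjusted p under 0.05, 2 of the 73 genes were called, Mrpl36 and Mrpl2, both higher in LysM-KI and both of the large subunit. Across all probes 5.35% had an unadjusted p under 0.05, 3.4% higher and 1.94% lower, so 2 of 73 is below the background share. The groups did not overlap for 1 of the 73 genes, Mrpl36, while 0.91% of all probes had groups that did not overlap.

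The fold changes lay a little above 0 in both subunits. The median log2 fold change was 0.17 over the 73 genes, with 48 above 0 and 25 below, and the values ran from -1.06 for Mrpl43 to 0.87 for Mrpl36. Of all probes 53.4% were above 0. Over all 8841 tested genes, each by its brightest probe, the median was 0.05 and 55.5% were above 0, against 65.8% of the mitochondrial ribosomal protein genes. Large-subunit genes had a median of 0.16, with 30 above 0 and 16 below. Small-subunit genes had a median of 0.20, with 18 above 0 and 9 below. The small-subunit median was 0.094 without control replicate 5 and 0.37 without control replicate 1. Without control replicate 4 the median was 0.10 over the 73 mitochondrial ribosomal protein genes and 0.090 over the large subunit. Differences beyond 0.5 in size were found for 20 of the 73 genes, 16 higher and 4 lower in LysM-KI, or 27.4%, where 27.2% of all probes lay beyond that size. The plot of fold changes with their intervals shows that all but 2 of the intervals include 0.

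**Figure D1:**
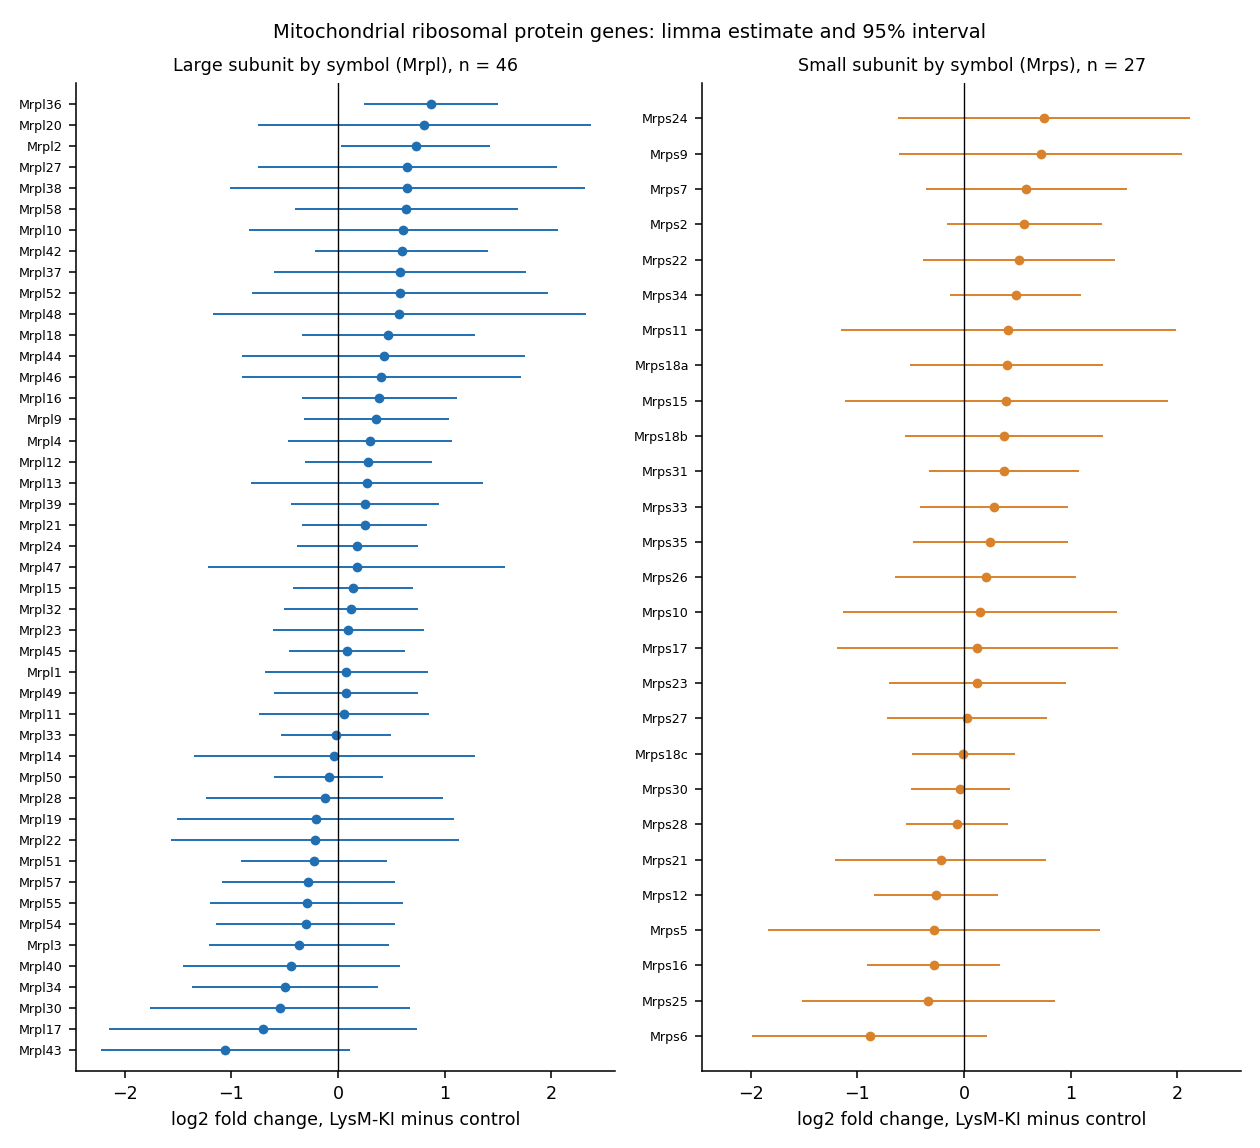
Log2 fold change of each tested gene, LysM-KI minus control, with its 95% interval from limma's model (points and lines), for 46 large-subunit (blue) and 27 small-subunit genes (orange), ordered by size. Only the intervals of Mrpl36 and Mrpl2 lie wholly above 0, and none lies wholly below.

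Of 79 genes for subunits of the oxidative phosphorylation complexes, which hold the products of mitochondrial translation, 74 were tested, and 57 were above 0 and 17 below, with a median of 0.09. Of 62 cytosolic ribosomal protein genes 59 were tested, and 32 were above 0 and 27 below, with a median of 0.03. None of either list passed the adjusted threshold. The difference between the lists was not tested. The median SD within groups was 0.634 for the mitochondrial ribosomal protein genes, 0.413 for oxidative phosphorylation and 0.205 for the cytosolic ribosome, with 0.637 over all genes.

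**Figure D2:**
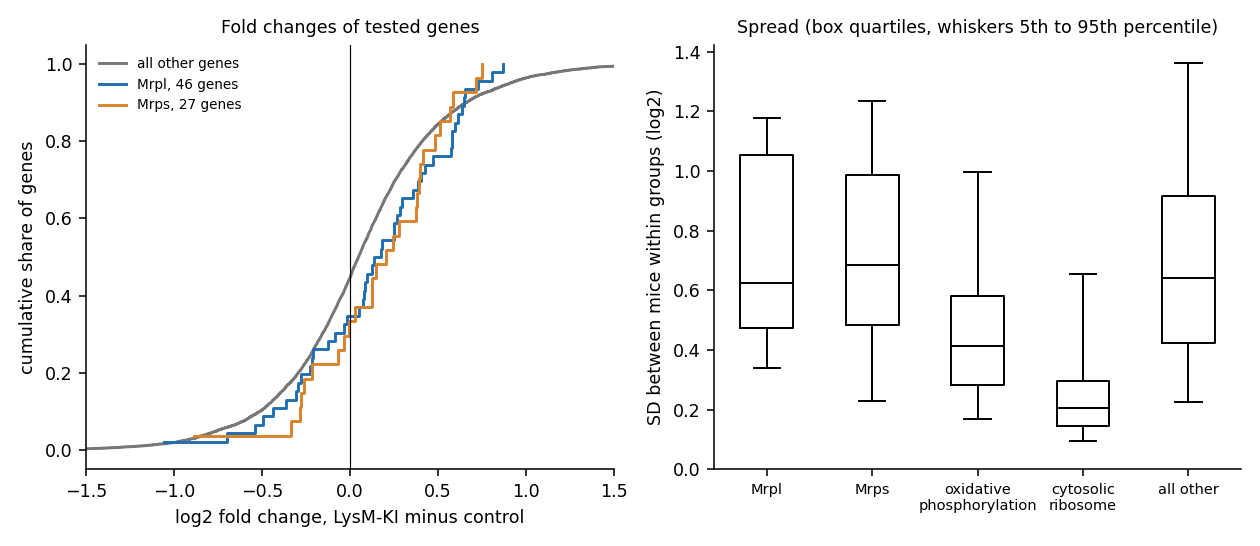
Left, cumulative share of genes (y axis) by log2 fold change, LysM-KI minus control (x axis), for Mrpl genes, Mrps genes and all other tested genes. The 2 coloured curves lie to the right of the grey curve around 0. Right, SD between mice within groups (log2 units), with boxes at the quartiles and whiskers at the 5th and 95th percentiles: Mrpl and Mrps genes spread about as widely as all other genes, and cytosolic ribosomal protein genes the least.

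Mrpl36 encodes a small protein of the large subunit with a bacterial counterpart (RefSeq gene record in GRCm38.p6, chr13:73328503-73332178). Its normalized log2 intensity was 8.44, 8.27, 8.80, 7.66 and 7.46 in control replicates 1 to 5. It was 8.84, 9.13, 8.84, 8.93 and 9.24 in LysM-KI replicates 1 to 5. All 5 LysM-KI arrays lay above all 5 control arrays, the nearest pair being control replicate 3 and LysM-KI replicates 1 and 3, and the controls were spread much more widely. The mean was 8.13 ± 0.56 (SD, n = 5) in control and 9.00 ± 0.18 in LysM-KI, a log2 fold change of 0.87 with a standard error of 0.29 (limma unadjusted p = 0.011, adjusted p = 0.819).

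Mrpl2, the counterpart of a bacterial protein beside the centre that forms the peptide bond, was the other gene with an unadjusted p under 0.05. Its level was 8.54, 8.24, 7.30, 7.19 and 8.15 in control replicates 1 to 5. It was 8.43, 8.18, 8.62, 9.02 and 8.83 in LysM-KI replicates 1 to 5. Control replicates 3 and 4 were low, and the other 3 controls, from 8.15 to 8.54, lay beside LysM-KI replicates 1 and 2, so the groups overlapped. The log2 fold change was 0.73 with a standard error of 0.32 (limma unadjusted p = 0.042, adjusted p = 0.918).

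Mrpl43, a protein found in the mitochondrial but not the bacterial large subunit, had the lowest fold change. Its level was 5.68, 5.92, 5.00, 8.11 and 6.31 in control replicates 1 to 5. It was 5.02, 4.79, 5.20, 6.13 and 4.60 in LysM-KI replicates 1 to 5. The signal was above background on 4 control and 2 LysM-KI arrays, and control replicate 4 stood well above the rest. The log2 fold change was -1.06 with a standard error of 0.53 (limma unadjusted p = 0.071, adjusted p = 0.938), and without control replicate 4 it was -0.58.

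The promoters of these genes were read from RefSeq's GRCm38.p6 table, which gives 250 bases before to 50 bases after a gene start, and 67 of the 76 genes matched. For Mrpl36 the table's start lies inside the gene record given above, which begins farther upstream. They are shown for the gene highest in LysM-KI (Mrpl36), the gene lowest in LysM-KI (Mrpl43), a gene that shares its start region with another mitochondrial ribosomal protein gene (Mrps11) and a stalk gene (Mrpl12). Capitals mark matches, on either strand, to motifs of factors known to drive nuclear genes of mitochondrial proteins: GCGC and TGCGC with any base between them for NRF1, CCGGAAG for ETS factors such as GABPA, and AAGATGGCG for YY1. All 4 are written 5′ to 3′ on the strand of the gene.
Mrpl36, chr13:73330759-73331058, plus strand, 1 YY1 match that starts 31 bases before the table's start: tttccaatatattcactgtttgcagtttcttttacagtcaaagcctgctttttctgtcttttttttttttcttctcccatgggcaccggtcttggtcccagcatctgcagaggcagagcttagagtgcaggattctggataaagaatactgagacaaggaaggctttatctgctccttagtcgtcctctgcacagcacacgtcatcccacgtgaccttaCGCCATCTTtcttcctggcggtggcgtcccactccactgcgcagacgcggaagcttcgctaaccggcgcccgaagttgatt
Mrpl43, chr19:45006393-45006692, minus strand, 2 ETS matches that start 56 and 12 bases before the table's start: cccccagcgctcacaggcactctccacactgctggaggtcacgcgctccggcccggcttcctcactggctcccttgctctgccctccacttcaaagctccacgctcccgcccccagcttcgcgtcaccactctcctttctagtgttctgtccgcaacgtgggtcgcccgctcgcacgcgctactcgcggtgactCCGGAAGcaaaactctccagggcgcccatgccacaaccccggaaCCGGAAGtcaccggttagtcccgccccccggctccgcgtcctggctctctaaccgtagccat
Mrps11, chr7:78782881-78783180, plus strand, 1 YY1 match that starts 108 bases before the table's start: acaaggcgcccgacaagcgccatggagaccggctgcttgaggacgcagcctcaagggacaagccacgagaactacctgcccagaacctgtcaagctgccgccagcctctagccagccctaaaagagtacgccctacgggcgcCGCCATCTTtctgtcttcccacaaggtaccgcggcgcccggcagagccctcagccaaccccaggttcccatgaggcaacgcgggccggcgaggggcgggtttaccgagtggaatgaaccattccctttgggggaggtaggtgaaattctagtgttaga
Mrpl12, chr11:120484387-120484686, plus strand, 1 NRF1 match that starts 81 bases before the table's start: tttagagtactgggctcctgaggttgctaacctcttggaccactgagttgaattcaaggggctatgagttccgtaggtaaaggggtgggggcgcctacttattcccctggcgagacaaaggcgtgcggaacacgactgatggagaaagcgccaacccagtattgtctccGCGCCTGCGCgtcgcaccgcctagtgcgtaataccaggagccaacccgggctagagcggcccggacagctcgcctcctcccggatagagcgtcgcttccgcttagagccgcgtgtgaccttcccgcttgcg

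These letters were common in the promoters of mitochondrial ribosomal protein genes. The NRF1 letters were found in 13 of the 67 genes (19.4%) and in 7.17% of 17492 genes with a promoter in the table. The ETS letters were found in 26 of the 67 (38.8%) against 12.9%, and the YY1 letters in 8 (11.9%) against 2.14%. Counted over all promoters rather than genes, the shares were 6.38%, 11.6% and 1.83%. At least 1 of the 3 motifs was present in 41 of the 67 genes (61.2%) against 20.0% of all genes, in 27 of 42 large-subunit and 14 of 25 small-subunit genes. The letters TATAAA were found in 5 of the 67 (7.46%), against 14.8% of all genes. The median promoter held 21 CG dinucleotides and 58% G and C, against 13 and 56.3% over all genes, so the promoters compared differ in base composition as well. A match describes the letters in this window and not binding of the factor. Among tested genes with at least 1 of the 3 motifs, 25 of 39 were above 0 and the median log2 fold change was 0.25. Among those without, 17 of 25 were above 0 and the median was 0.13.

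Many of these genes start next to another gene that is read in the opposite direction. A gene start on the opposite strand lay upstream within 1000 bases for 23 of the 67 genes (34.3%), in 16 of 42 large-subunit and 7 of 25 small-subunit genes, against 8.48% of all genes. Mrpl46 and Mrps11 face away from each other across 42 bases, and their log2 fold changes were 0.41 (standard error 0.60) and 0.42 (0.71). Mrpl46 read 10.32 in LysM-KI replicate 2 and 6.94 to 7.60 in the other LysM-KI replicates. Mrps11 read 5.05 in LysM-KI replicate 2, its lowest of the 10 arrays, and its other kept probe had a log2 fold change of -0.67. Mrpl43 lies 116 bases from Twnk, the mitochondrial DNA helicase, whose log2 fold change was -0.37. Mrpl2 lies 141 bases from Klc4, a kinesin light chain, at -0.05. Mrps7 lies 224 bases from Gga3, a sorting adaptor of the Golgi, at -0.58 beside 0.58 for Mrps7. In 15 pairs both genes were tested, and the fold changes had the same sign in 11, both higher in 6 and both lower in 5, with Mrpl46 and Mrps11 counted as 1 pair. For Mrps11, Mrps7, Mrpl47 and Mrpl51 the kept probes of the gene differed in sign. Of all tested genes 55.5% were above 0. The same-sign share over all such pairs on the array was not computed, so nothing is read from this count of pairs. These pairs were named for their position.

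In the small subunit none of the 27 tested genes reached an unadjusted p under 0.05. The 3 with the smallest p were Mrps6, Mrps34 and Mrps2. Mrps6, a protein of the platform of the small subunit, read 6.74, 7.54, 8.34, 8.83 and 6.22 in control replicates 1 to 5. It read 7.29, 6.35, 7.19, 6.48 and 5.93 in LysM-KI replicates 1 to 5. Control replicates 2, 3 and 4 lay above all LysM-KI arrays and the other 2 controls among them. The log2 fold change was -0.89 with a standard error of 0.50 (limma unadjusted p = 0.105), and without control replicate 4 it was -0.56.

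Mrps34, found in mitochondrial but not bacterial ribosomes and linked to Leigh syndrome in humans, read 10.63, 10.64, 10.95, 9.80 and 10.48 in control replicates 1 to 5. It read 10.61, 11.55, 11.02, 10.82 and 10.92 in LysM-KI replicates 1 to 5. Control replicate 4 was the lowest and LysM-KI replicate 2 the highest of the 10 arrays, and the other 8 lay close together. The log2 fold change was 0.48 with a standard error of 0.28 (limma unadjusted p = 0.110), and without control replicate 4 it was 0.31. Mrps2, which has a bacterial counterpart and is linked to human mitochondrial disease, read 7.34, 5.99, 6.91, 6.09 and 5.62 in control replicates 1 to 5. It read 6.80, 6.85, 7.03, 7.13 and 6.96 in LysM-KI replicates 1 to 5. The 5 LysM-KI arrays were within a narrow band inside the control range. The log2 fold change was 0.57 with a standard error of 0.33 (limma unadjusted p = 0.113), and without control replicate 5 it was 0.37.

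**Figure D3:**
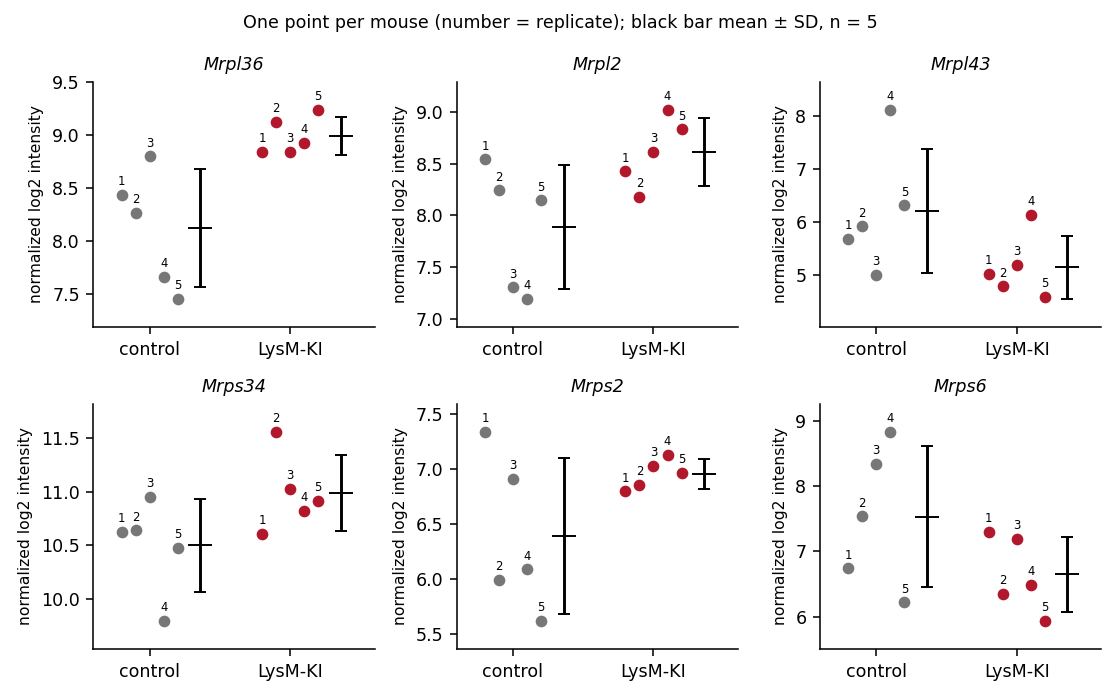
Normalized log2 intensity (y axis) of 6 genes in each mouse, control (grey) and LysM-KI (red), with the replicate number beside each point and the mean ± SD of the group (n = 5) in black. The groups are separate for Mrpl36 and overlap for Mrpl2, Mrpl43, Mrps34, Mrps2 and Mrps6, and control replicate 4 is the highest or lowest control in 4 of these 6 genes.

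The next genes by p in each subunit were all above 0. Their standard errors were larger than those of Mrpl36, Mrpl2, Mrps34 and Mrps2, but mostly smaller than those of Mrpl43 and Mrps6. In the large subunit, the mitochondria-specific gene Mrpl42 had a log2 fold change of 0.60 (standard error 0.37). Mrpl58, a peptidyl-tRNA hydrolase built into the large subunit that frees stalled ribosomes, had 0.64 (0.47), and Mrpl18, a protein of the central protuberance, had 0.47 (0.37). In the small subunit Mrps24 had 0.75 (0.62), Mrps7 0.58 (0.43) and Mrps22 0.51 (0.41). The last 2 are linked to mitochondrial disease in humans. For Mrpl58 the LysM-KI arrays read 6.80 to 7.40 and 4 controls 6.60 to 7.28, with control replicate 4 at 4.50. For Mrps22 the LysM-KI arrays read 9.35 to 10.04 and 4 controls 9.34 to 10.03, with control replicate 4 at 7.57. Without that array the log2 fold change was 0.15 for Mrpl58, 0.11 for Mrps22, 0.32 for Mrpl42, 0.29 for Mrpl18 and 0.22 for Mrps24. Without control replicate 5 that of Mrps7 was 0.19. Leaving out LysM-KI replicate 2 gave 0.78 for Mrpl18, and leaving out control replicate 2 gave 1.21 for Mrps24.

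By place in the ribosome, the 3 genes of the stalk that recruits translation factors were all above 0. Mrpl12, which in human cells also binds the mitochondrial RNA polymerase, had a log2 fold change of 0.28 (standard error 0.27), Mrpl10, which anchors it, 0.61 (0.66), and Mrpl11, at the base of the stalk, 0.05 (0.36). Without control replicate 4 that of Mrpl12 was 0.15, and that of Mrpl10 was 0.26 without control replicate 5 and 1.15 without control replicate 3. Of 7 genes of the central protuberance, where the subunits touch, 5 were above 0, with a median of 0.47. Of 7 genes around the tunnel through which the new peptide leaves, 5 were above 0, with a median of 0.10. None of these 17 genes reached an unadjusted p under 0.05. The groups were small and are described only.

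Genes for proteins with a counterpart in bacteria and for proteins that mitochondria gained both had medians above 0. In the large subunit, 19 of 29 tested genes with a bacterial counterpart were above 0, with a median of 0.14, and 10 of 15 mitochondria-specific genes, with a median of 0.25. In the small subunit the counts were 8 of 15, with a median of 0.13, and 9 of 10, with a median of 0.26. The exception among the last 10 was Mrps25, at -0.34 by its brightest probe. Its other 2 kept probes read 0.55 and 0.34. They were detected on 1 control and 5 LysM-KI arrays and on 2 and 4, and so passed the filter mainly through LysM-KI. Nothing is read from their direction. Of 13 genes linked to human mitochondrial disease 12 were tested, and 8 were above 0 and 4 below, with a median of 0.23. The 4 below were Mrpl3 at -0.36, Mrps25 at -0.34, Mrps16 at -0.29 and Mrps28 at -0.07. Mrpl24, Mrpl44 and Mrps23 of that list were at 0.18, 0.43 and 0.12.

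A few symbols do not match the place of the protein. Mrps30 and Mrps18a carry the letter of the small subunit, but their proteins are part of the large subunit in mammals. Mrps30 was the steadiest of the tested genes, at 10.30, 10.74, 10.67, 10.58 and 10.50 in control replicates 1 to 5. In LysM-KI replicates 1 to 5 it was 10.46, 10.77, 10.69, 10.51 and 10.19. The groups lay on top of each other, with a log2 fold change of -0.03 and a 95% interval from -0.50 to 0.43. Mrps18a, Mrps18b and Mrps18c are paralogs whose proteins take different places in the ribosome, and their log2 fold changes were 0.40, 0.38 and -0.01. For Mrps18c, which lies in the small subunit, the interval ran from -0.49 to 0.48. Counting Mrps30 and Mrps18a with the large subunit left the medians at 0.16 and 0.20.

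The 2 genes of each subunit letter with the smallest spread between mice were Mrps30 and Mrps28, and Mrpl33 and Mrpl50, with SDs within groups of 0.20, 0.22, 0.27 and 0.27. The intervals of their differences reached at most 0.60 in size, and the log2 fold change of Mrpl33 was -0.02 and that of Mrpl50 was -0.09. The 2 of each letter with the widest spread were Mrpl38 and Mrpl48, both of the central protuberance, and Mrps11 and Mrps5, with SDs of 1.37, 1.44, 1.28 and 1.27. Mrpl38 read 8.60, 8.65, 6.32, 4.86 and 9.28 in control replicates 1 to 5 and 7.59 to 8.85 in LysM-KI. Control replicates 3 and 4 were thus far below the other 8 arrays. Mrps5 read 6.10 in control replicate 5 and 5.11 in LysM-KI replicate 2, and 7.89 to 8.81 on the other 8 arrays. For these genes the fold changes of 0.65 (standard error 0.76) for Mrpl38 and -0.28 (0.71) for Mrps5 rested on 1 or 2 arrays.

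The 76 genes had 132 probes, of which 108 were kept. Of 25 genes with several kept probes, 15 had probes whose fold changes differed in sign, Mrpl51 and Mrps25 among them. The same share over other genes with several kept probes was not computed, so nothing is read from this count. Mrpl48 had 5 kept probes with log2 fold changes of 0.58 for the brightest and 0.70, -0.54, -0.00 and -1.02 for the others, the last with an unadjusted p of 0.022 by limma. Mrpl51, a large-subunit protein found only in mitochondria, read -0.23 by its brightest probe and 1.21 by the other. The other probe had a signal on 2 control and 5 LysM-KI arrays and so passed the filter mainly through LysM-KI. Nothing is read from its direction. For Mrps12, a protein of the centre that reads the codon, the probes gave -0.26 and 0.48, and for Mrpl3 they gave -0.36 and 0.43. The probes of Mrpl10 gave 0.61 and 0.56, and those of Mrps22 gave 0.51 and 0.65. The direction of a gene whose probes disagree is uncertain, and no probe of these genes passed the adjusted threshold.

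Averaged over the 73 tested genes, the level on each array differed between mice by more than between groups. The mean was 8.30, 8.34, 8.43, 7.86 and 7.95 in control replicates 1 to 5. It was 8.31, 8.05, 8.53, 8.33 and 8.40 in LysM-KI replicates 1 to 5. Control replicates 4 and 5 were the lowest, followed by LysM-KI replicate 2, and the other 7 arrays lay close together, so the groups overlapped. The group means were 8.18 ± 0.25 (SD, n = 5) and 8.32 ± 0.18, a difference of 0.15. Leaving out 1 array gave differences from 0.067, without control replicate 4, to 0.21, without LysM-KI replicate 2, and under 0.10 also without control replicate 5 or LysM-KI replicate 3.

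Both subunits followed the same order of groups. The large-subunit mean was 8.16 ± 0.24 in control and 8.29 ± 0.18 in LysM-KI (SD, n = 5), and the small-subunit mean was 8.21 ± 0.30 and 8.37 ± 0.20. The large minus the small subunit, a within-array contrast that sets different probes against each other and so has meaning only between arrays, was -0.05 in control and -0.08 in LysM-KI on average. It ran from -0.24 to 0.09 over the controls and from -0.16 to 0.09 over LysM-KI. The balance of the subunits thus differed between the groups by -0.02, less than the spread between mice.

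**Figure D4:**
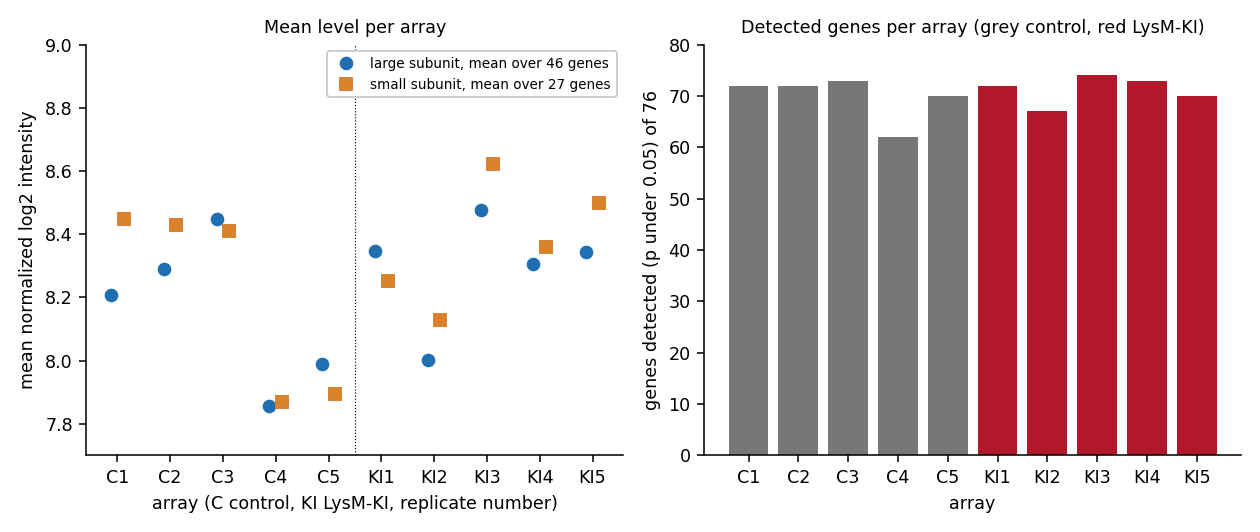
Left, mean normalized log2 intensity (y axis) of 46 large-subunit genes (blue circles) and 27 small-subunit genes (orange squares) on each array (x axis), C for control and KI for LysM-KI with the replicate number. Control replicates 4 and 5 are lowest for both subunits. Right, number of the 76 genes detected on each array, from 62 on control replicate 4 to 74 on LysM-KI replicate 3.

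Of the 76 genes, 72, 72, 73, 62 and 70 were detected on control replicates 1 to 5 and 72, 67, 74, 73 and 70 on LysM-KI replicates 1 to 5. Control replicate 4 held the lowest value of the 10 arrays for 22 of the 73 genes and the highest for 14, so it differed in both directions. Control replicate 5 was lowest for 15 genes. The SD was larger among the controls for 51 of the 73 genes (69.9%), close to the 70.4% of all tested genes, and without control replicate 4 it was larger for 44 (60.3%), against 61.6%. The median SD of the genes was 0.71 in control and 0.47 in LysM-KI. The share of these genes with wider spread in control was thus near that of all genes.

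Deviations from the group means were only weakly shared between these genes. Over the 10 arrays the median correlation between a pair of the 73 genes was 0.08, with 57.0% of pairs positive, against 0.004 and 50.4% over all genes. These are descriptions over arrays that also share depth and amplification. The 3 genes most like Mrpl12 were Mrpl13 (Pearson's r 0.75), Mrps25 (0.74) and Mrpl20 (0.67). Those most like Mrps12 were Mrpl11 (0.88), Mrpl1 (0.62) and Mrps16 (0.39).

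Genes that work around the mitochondrial ribosome also showed no difference after correction. Of 18 tested mitochondrial aminoacyl-tRNA synthetases, which load the transfer RNAs, 15 were above 0 and 3 below, with a median of 0.47. An unadjusted p under 0.05 was reached by 2 of the 18, the leucine and alanine enzymes, where 3.4% of all probes were higher at that p. Both passed the filter only through LysM-KI, being detected on 1 control and 5 LysM-KI arrays, so nothing is read from that count and no fold change is given. Pars2 was detected on 1 control and 4 LysM-KI arrays, Ears2 on 2 and 4, and Hars2 on 2 and 5. Of these genes all but Hars2 are among the 15 above 0, so nothing is read from the 15 or from the median either. Lars2 read 4.71 to 5.80 in control and 5.42 to 6.66 in LysM-KI, and Aars2 read 4.54 to 5.95 and 5.27 to 6.49. Yars2, the tyrosine enzyme, read 7.31 to 8.17 in control and 8.19 to 8.43 in LysM-KI, for a log2 fold change of 0.47 (limma unadjusted p = 0.068). Its groups did not overlap, as was so for 0.91% of all probes.

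Of 23 tested factors that assemble the mitochondrial ribosome or modify its RNA, 12 were above 0 and 11 below, with a median of 0.14. An unadjusted p under 0.05 was reached by 3 of them, where 5.35% of all probes had one. Rcc1l was at -1.32 (standard error 0.40, limma unadjusted p = 0.007), Rpusd4 at 0.78 (standard error 0.31, limma unadjusted p = 0.029) and Noa1 at 1.25 (standard error 0.54, limma unadjusted p = 0.041). Rcc1l, a factor for assembly of the ribosome, read 7.52 to 9.20 in control and 5.82 to 7.35 in LysM-KI. Its groups thus did not overlap, as was so for 0.91% of all probes. Rcc1l lay in the opposite direction to the other 2. Rpusd4, a pseudouridine synthase of the large ribosomal RNA, and Noa1, a GTPase for assembly of the small subunit, had overlapping groups. Without control replicate 4 the log2 fold change of Noa1 was 0.75. Of 14 tested translation factors 11 were above 0, with a median of 0.25, and none had an unadjusted p under 0.05. Among the 11, Gfm1 was detected on 1 control and 4 LysM-KI arrays and so passed the filter mainly through LysM-KI. Nothing is read from that count or median. Tufm, the elongation factor that delivers loaded transfer RNAs, was at 0.51, and at 0.28 without control replicate 4.

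Oxa1l, the insertase that places new proteins into the inner membrane and is not itself a ribosomal protein, had the smallest p of all genes examined around the ribosome. It read 5.97, 4.93, 5.27, 6.02 and 6.04 in control replicates 1 to 5. It read 6.71, 7.83, 8.68, 6.40 and 7.62 in LysM-KI replicates 1 to 5. All LysM-KI arrays lay above all controls, and groups did not overlap for 0.91% of all probes. The log2 fold change was 1.81 with a standard error of 0.44 (limma unadjusted p = 0.002, adjusted p = 0.650). It was listed with 4 further proteins of the ribosome that lack an Mrpl or Mrps symbol, and of the 5 genes 4 were above 0. Of 18 tested genes for maintenance and transcription of mitochondrial DNA 11 were above 0, with a median of 0.12, and of 13 regulators of mitochondrial biogenesis 8, with a median of 0.23. Tfam is on both lists, and Tfb1m is on the list of regulators and on that of assembly factors. None of the genes of either list reached an unadjusted p under 0.05. Sirt3, a mitochondrial deacetylase, came nearest with a log2 fold change of 0.74 (limma unadjusted p = 0.052).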

How the data were processed

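The labels gave groups, replicate numbers and ages, and describe 1 mouse per sample. P-values therefore reflect variation between mice together with that of sorting, amplification and hybridisation. RNA was amplified and labelled with a kit for small amounts of RNA, per the labels' protocols. No source used here names the scanner software. The authors deposited a linear intensity per probe, with the background still in it, for 45281 probes on 10 arrays. Beside it the authors deposited a fraction that rose with the intensity of its array (lowest rank correlation 0.990), and 1 minus it served as the detection p. The authors' processed log2 values, which served only as an alternative, equalled log2 quantile-normalized intensities centred on the probe median within 0.0131, with column medians from -0.0009 to 0.0040, and their making is not given in the sources used here.

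Normalization used the neqc function of limma 3.58.1 under R 4.3.3, with normexp on inferred negative controls, an offset of 16, quantile scaling and log2. The detection filter of 5 arrays at p under 0.05 kept 17245 probes. An offset pulls fold changes of dim probes toward 0. Control and LysM-KI were compared in a linear model by limma's moderated test (eBayes, two-sided), adjusted by Benjamini-Hochberg over the kept probes, with a threshold of 0.05 and 11.1 degrees of freedom. The test was also run on simulated independent normal values with the same SD in both groups. In the real data the SD was larger among the controls for most genes. That run therefore does not show how the test behaves on data like these. Probes took their symbols from the platform annotation, brought up to date with RefSeq identifiers: 34885 probes had 1 symbol, 18 several and 10378 none. The brightest probe stood for a gene. The genes picked for naming were, per subunit, the 6 with the smallest p, the 4 brightest, the 2 with the largest and the 2 with the smallest spread. To these came the stalk, disease-linked, paralogous and probe-disagreeing genes, and up to 3 of each further list by p. Not all picked genes are described in the text. Genes outside these picks were named for their position or after their values were seen. The members and lists were chosen with earlier results of these data known. Alternatives changed the background correction, scaling, offset, detection filter, probe rule, replicate block and the arrays included. Columns of other samples numbered 0.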

Additional observations from a re-analysis of the deposited data

Results flagged for a closer look

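In each group of 5 arrays the highest and lowest values were set against Dixon's 95% critical value. This was done for the mitochondrial ribosomal protein genes picked for naming, the mean levels per array and the numbers of genes detected. Of 96 groups tested 10 held an array that stood apart. Chance gives about 1 in 20 for independent groups. These genes were named partly for their spread or p and share the same arrays, so the count is not read against that rate. Control replicate 4 stood apart in 3 of them. It read 4.50 for Mrpl58, where the nearest control read 6.60, and 7.57 for Mrps22, where the nearest read 9.34. It detected 62 of the 76 genes, where the nearest control detected 70. LysM-KI replicate 2 stood apart for Mrpl18, at 8.74 with the nearest at 10.03, and for Mrps5, at 5.11 with the nearest at 7.89. Mrps5 was also low in control replicate 5, at 6.10 with the nearest at 7.98. LysM-KI replicate 5 was low for Mrpl21, the counterpart of a bacterial large-subunit protein, at 10.64 with the nearest at 11.10, and high for Mrpl1, at 9.44 with the nearest at 8.96. Mrps12 read 8.96 in LysM-KI replicate 3, with the nearest at 9.61, and Mrps31 read 8.73 in LysM-KI replicate 4, with the nearest at 9.71.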

How the results depend on the processing

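No alternative gave a probe or a mitochondrial ribosomal protein gene past the adjusted threshold, the smallest adjusted p of a named gene in any of them being 0.457. The median log2 fold change of the tested mitochondrial ribosomal protein genes stayed above 0 in all alternatives. It ran from 0.10 to 0.24 when 1 array was left out and from 0.11 to 0.29 otherwise. It was 0.29 under median scaling, where the median of all probes was 0.13, and 0.12 under cyclic loess. Leaving out 1 array gave 743 to 1224 probes at an unadjusted p under 0.05. The number of mitochondrial ribosomal protein genes at an unadjusted p under 0.05 was 1 to 4 when 1 array was left out, with 1 without control replicate 4 or LysM-KI replicates 1, 3 or 5 and 4 without control replicate 5. It was 1 under cyclic loess. Under median scaling 180 probes were lower at an unadjusted p under 0.05. Restricting to probes detected on all 10 arrays left 531 such probes, 320 higher and 211 lower, and no filter gave 1848, 984 higher and 864 lower, because fewer or more probes were tested. Fewer genes had a larger SD in control without control replicate 4, an alternative chosen after seeing the data (44 in place of 51).

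Of 62 genes with alternatives 43 kept their sign in all of them. Small fold changes turned sign under other processing: the Mrpl47 log2 fold change was -0.028 with no background correction and -0.029 in the authors' values, Mrpl1 was -0.044 under cyclic loess, and median scaling gave 0.052 for Mrpl33, 0.058 for Mrps18c and 0.031 for Mrps30. Signs also turned with arrays left out, either 1 or control replicate 4 together with replicate 2 or 4 of LysM-KI. Leaving out the former with replicate 2 gave 0.10 for Mrpl33, 0.14 for Mrps18c, -0.19 for Mrpl38, -0.14 for Mrpl48, 0.49 for Mrps5, -0.079 for Mrps23, 0.048 for Mrpl19 and -0.088 for Mrps15. With replicate 4 it gave 0.074 for Mrps18c and -0.30 for Mrps15. Over these settings the values ran from -0.18 to 0.28 for Mrpl23, -0.079 to 0.10 for Mrpl33, -0.029 to 0.39 for Mrpl49, -0.097 to 0.14 for Mrps18c, -0.099 to 0.047 for Mrps30, -0.19 to 1.08 for Mrpl38 and -0.14 to 1.05 for Mrpl48. They ran from -0.0055 to 0.84 for Mrps11, -0.73 to 0.49 for Mrps5, -0.18 to 0.022 for Mrpl50, -0.15 to 0.36 for Mrpl11, -0.088 to 0.36 for Mrps23 and -0.74 to 0.011 for Mrps25. They ran from -0.12 to 0.36 for Mrpl1, -0.66 to 0.17 for Mrpl19, -0.32 to 0.85 for Mrpl47, -0.31 to 0.48 for Mrps10, -0.30 to 0.81 for Mrps15 and -0.027 to 0.78 for Ptcd3, a small-subunit protein called MRPS39 in humans. The cause of these turns was not tested.

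Both groups number their replicates 1 to 5, but the deviations of arrays with the same number correlated at 0.06, -0.03, 0.02, 0.02 and 0.05, so the numbers were not taken as pairs. With the replicate number as a block, 0 genes passed the threshold. The mitochondrial ribosomal protein genes at an unadjusted p under 0.05 numbered 2, and the probes at an unadjusted p under 0.05 numbered 980. The medians were 0.17 for the tested mitochondrial ribosomal protein genes, 0.16 for the large and 0.20 for the small subunit. The number of arrays and the background of dim probes limit the precision.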
